A study of Mus musculus with 2 samples.

Results

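The Notch receptors *Notch1*, *Notch2* and *Notch3*, the nuclear mediator *Rbpj*, the Notch targets *Hes1*, *Dtx1* and *Nrarp*, and the early thymocyte genes *Il2ra*, *Ptcra* and *Cd44* were followed in DP thymocytes, which carry both CD4 and CD8. They were picked by symbol, all 10 are among the 21041 genes of the deposited table, and they were put together because some of them are higher in the *Cxxc1*-deficient library while most expressed genes are lower. Their values below therefore describe them and are not a test. The data are 1 mRNA library of DP thymocytes from WT mice (*Cxxc1* fl/fl without Cre, by the study's account of its mice) and 1 from *Cxxc1*-deficient mice, in which the human *CD2*-driven Cre removes part of *Cxxc1* from developing thymocytes and from other immune cells (*Cxxc1* fl/fl h*CD2*-Cre). The floxed allele, made in 129 embryonic stem cells and backcrossed to C57BL/6, is thus common to both groups. The mice were a few weeks old unless otherwise specified by the study, and the number of mice per library is not given in the sources used here. The sample's genotype label reads Cxxc1+/-, which differs from this, and the library was grouped by its title. *Cxxc1* encodes CXXC1, which binds unmethylated CpG and brings the SETD1 complex that trimethylates histone H3 lysine 4.

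Notch receptors are cut by proteases once a ligand on a neighbouring cell binds them, and the freed intracellular part joins RBPJ on DNA and turns a repressed target into an active one. In the thymus, NOTCH1 commits progenitors to the T lineage and acts through the CD4- CD8- double-negative (DN) stages. There, *Il2ra* (CD25) and *Cd44* mark successive stages, and *Ptcra* supplies the chain that pairs with a new TCR beta chain to form the pre-TCR. Pre-TCR signalling carries cells to the DP stage, where Notch signalling and *Il2ra* are normally shut down. Expression of these genes in DP cells was compared between the genotypes to see which parts of the pathway were higher, lower or at background in the *Cxxc1*-deficient library.

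CXXC1 can bind CpG, and CpG in start regions is given here as a description only. In DP cells the study found few CXXC1-binding sites at CpG islands. A CXXC1 form whose DNA binding was abolished still restored development in its cultures. The start regions of the 3 genes that were at least 2-fold higher in the deficient library were set beside that of *Ptcra*. *Ptcra* had the largest reduction among the 10. RefSeq promoter windows of 300 bases, from 250 before to 50 after the annotated start, matched 9 of the 10 genes by symbol, all but *Hes1*. The windows are in the GRCm38.p6 build, 5′ to 3′ on the gene's strand, at chr2:26503773-26504072 on the minus strand for *Notch1*, chr17:32166841-32167140 on the minus strand for *Notch3*, chr2:11642542-11642841 on the plus strand for *Il2ra* and chr17:46763663-46763962 on the minus strand for *Ptcra*. Only *Notch1* and *Notch3* of these 4 are rich in CpG, marked here in capitals.
Notch1: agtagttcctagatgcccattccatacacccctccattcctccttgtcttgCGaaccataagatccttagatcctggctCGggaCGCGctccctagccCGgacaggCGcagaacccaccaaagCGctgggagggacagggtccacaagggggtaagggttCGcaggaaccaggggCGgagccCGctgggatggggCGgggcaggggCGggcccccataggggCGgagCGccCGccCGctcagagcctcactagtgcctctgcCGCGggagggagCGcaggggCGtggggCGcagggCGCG
Notch3: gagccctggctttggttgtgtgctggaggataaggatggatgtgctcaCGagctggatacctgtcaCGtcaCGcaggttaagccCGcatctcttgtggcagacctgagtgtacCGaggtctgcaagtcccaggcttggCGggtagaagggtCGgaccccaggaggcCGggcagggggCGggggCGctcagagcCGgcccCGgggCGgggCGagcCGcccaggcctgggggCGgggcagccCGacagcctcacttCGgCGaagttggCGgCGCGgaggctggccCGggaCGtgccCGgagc
Il2ra: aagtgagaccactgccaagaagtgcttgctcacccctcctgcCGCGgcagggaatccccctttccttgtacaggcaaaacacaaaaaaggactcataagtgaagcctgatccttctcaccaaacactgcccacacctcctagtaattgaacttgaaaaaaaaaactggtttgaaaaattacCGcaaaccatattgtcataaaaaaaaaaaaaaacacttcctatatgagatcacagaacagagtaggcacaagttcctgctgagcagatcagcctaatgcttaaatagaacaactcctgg
Ptcra: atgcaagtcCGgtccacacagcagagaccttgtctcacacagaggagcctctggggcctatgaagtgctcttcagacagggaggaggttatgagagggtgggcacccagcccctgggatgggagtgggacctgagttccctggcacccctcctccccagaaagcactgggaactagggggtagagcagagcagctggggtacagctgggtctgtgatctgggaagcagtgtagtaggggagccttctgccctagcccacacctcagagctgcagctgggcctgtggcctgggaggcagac

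The window holds 23 CpG for *Notch1*, 25 for *Notch3*, 3 for *Il2ra* and 1 for *Ptcra*, against a median of 7 over 32851 RefSeq windows. Windows with at least 20 CpG make up 26.5% of all and include those of *Notch2* (41), *Dtx1* (26), *Nrarp* (21) and *Rbpj* (26 and 28 at its 2 starts). *Cd44* has 6. The genes with higher values therefore include CpG-rich and CpG-poor starts. The letters TGGGAA, the core of the sequence that RBPJ binds, were searched on both strands and occur in 25.6% of all windows. They occur in none of the windows of *Notch1*, *Notch2*, *Notch3*, *Dtx1*, *Nrarp* and *Il2ra*, on the plus strand of the *Ptcra* window at 84 and 32 bases before the start, and 2 times in that of *Cd44*. For *Rbpj* they occur 2 times in the window of 1 start and 1 time in that of the other. These are matches of letters in short windows and no measure of binding.

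Across the whole table, the values sum to 1551994 (WT) and 981677 (*Cxxc1*-deficient), and their median is 36 in both. The values are normalized expression per gene, rounded to whole numbers, and rest on an estimated 1404334 gene reads for WT against 724049 for the deficient library. The targeted gene, *Cxxc1*, had 91 in WT and 50 in the deficient library, a value over the whole gene that reads of undeleted exons also enter. The study reports *Cxxc1* mRNA as almost undetectable in deficient DP cells by quantitative PCR. Undeleted exons, incomplete deletion and a heterozygous sample, as the label Cxxc1+/- would read, cannot be told apart from this value. Leaving out genes at 0 in both libraries, the median log2 ratio of deficient to WT was -0.20, and it was -1.08 over the 2472 genes whose mean of both libraries was 100 or more. All 12 DP-stage genes of a fixed list were high in both libraries, with a median of 2166.5 in WT and 592 in the deficient library. All 12 were lower in the deficient library and 11 at least 2-fold lower, *Cd8a* with 3503 and 507 among them, and some, such as *Rag1*, are shared with the DN stages. Of all genes with a mean of 100 or more, which all 12 reach, 95.2% were lower and 56.8% at least 2-fold lower. At a mean of 500 or more these shares were 96.3% and 84.1%. Nothing particular to the DP-stage list is read from its count. Genes silent in thymocytes are not near 0: the 1122 olfactory receptor genes had a median of 22 in WT and 24 in the deficient library, with 95th percentiles of 54 and 57. Genes of the Y chromosome were at 0 in WT and above 0 in the deficient library for 5 of 5 genes looked at, so the sex of the mice may differ between the libraries and cannot be told apart from genotype. Each genotype has 1 library, so the differences below have no replicates behind them and are given without p-values. The intervals of single genes cover counting error only and compare these libraries, not the genotypes.

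Of the 10 genes, 7 had a higher and 3 a lower deposited value in the *Cxxc1*-deficient library, and the number lower was 1, 1 and 0 under scalings that raise that library 1.31-fold, 1.48-fold and 2.0-fold. Over the 20125 genes above 0 in at least 1 library, 37.2% were higher and 60.0% lower. At least 2-fold higher were 3 of the 10, against 5.89% of all genes, and 0 of the 10 were at least 2-fold lower, against 17.4% of all genes. The genes had been brought together for this contrast, so these shares are given without reading anything from them. The 3 genes are *Notch1*, *Notch3* and *Il2ra*, which stand clear of the rest in the plot of values per gene.

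**Figure D1:**
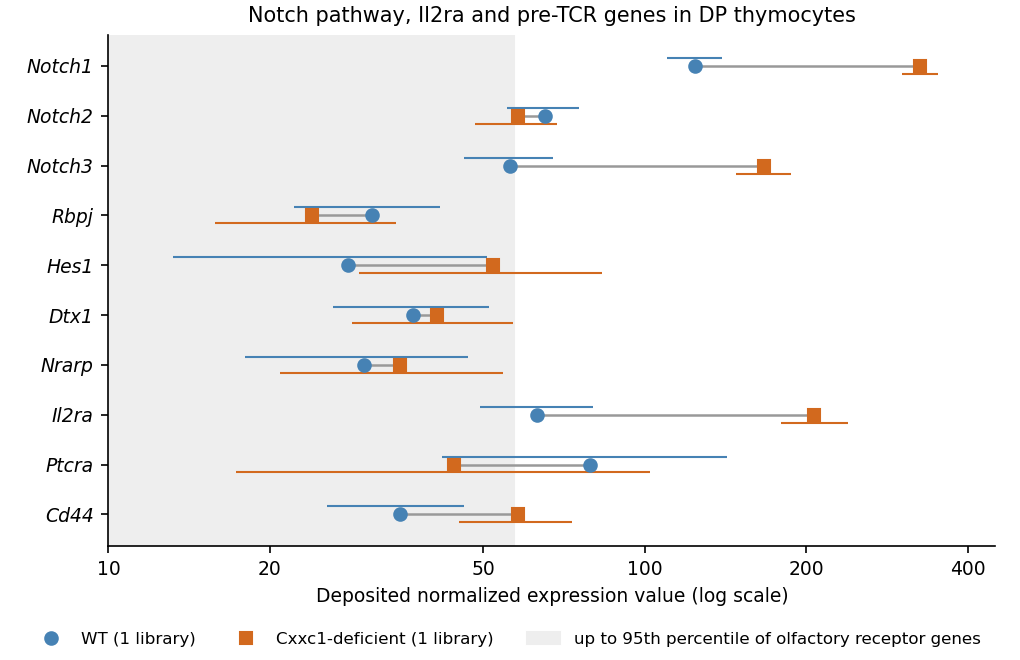
Deposited normalized expression value (log axis) of each of the 10 genes in the WT library (blue circles) and the Cxxc1-deficient library (orange squares), with 95% exact Poisson intervals from estimated reads as thin lines and, in grey, values up to the 95th percentile of olfactory receptor genes in the deficient library (57). Notch1, Notch3 and Il2ra lie at 167 to 326 in the deficient library, whereas Notch3, Rbpj, Hes1, Dtx1, Nrarp and Cd44 lie inside the grey range in WT.

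Among the receptors, *Notch1* (mm9 chromosome 2, 26313423 to 26372183, minus strand) had a value of 124 in WT. In *Cxxc1*-deficient DP thymocytes it was 326, 2.63-fold higher, with a 95% interval from 2.29 to 3.03 (Clopper-Pearson, from approximately 290 and 657 reads). That interval is for its longest coding transcript, and for its shortest it ran from 1.37 to 4.91. *Notch1* was above 87.9% of all genes in WT and above 99.5% in the deficient library. The receptor that starts T-lineage commitment was thus among the top genes of the deficient library and in the upper range of the WT library.

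*Notch3*, a receptor that is itself a Notch target in early thymocytes (chromosome 17, 32257765 to 32303825, minus strand), had 56 in WT and 167 in the deficient library, 2.98-fold higher, with an interval from 2.39 to 3.75 (approximately 111 and 285 reads). The WT value is near the 95th percentile of 54 of the olfactory receptor genes in that library, and its interval runs from 46 to 67.4. *Notch2*, the receptor best known for marginal zone B cells (chromosome 3, 97817461 to 97954290, plus strand), had 65 in WT and 58 in the deficient library. Its ratio of 0.892, which is above 1 under 3 of the scalings, had an interval from 0.703 to 1.13, and no difference was detectable at this depth. *Notch4*, the endothelial receptor, had 27 and 28, near the level of silent genes.

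The receptors were also compared within each library, where no scaling of a library can change the ratio. *Notch1* had 1.91 times the value of *Notch2* in WT and 5.62 times in the deficient library. *Notch3* had 0.862 times the value of *Notch2* in WT and 2.88 times in the deficient library. The ratio of *Notch3* to *Notch1* was 0.452 in WT and 0.512 in the deficient library. The ratio of *Notch3* to *Notch1* was the nearest of these to being alike in both libraries. If a value is expression per transcript length, as the short genes imply, these are ratios of levels per length.

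*Rbpj*, the DNA-binding partner of all Notch receptors (chromosome 5, 53947018 to 54048684, plus strand), had 31 in WT and 24 in the deficient library. The ratio of 0.774, which is above 1 under 3 of the scalings, had an interval from 0.462 to 1.28. Both values are near the level of olfactory receptor genes, although RBPJ is made in most cells. The authors kept uniquely mapped reads of 50 bases, and of the 50-base windows inside *Rbpj* exons 43.9% occur once in the genome, against at least 97.1% for each of the 9 other genes. The level of *Rbpj* is therefore uncertain, and the part of these windows in it was not tested.

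The 3 Notch targets *Hes1*, *Dtx1* and *Nrarp* lay at or near background. *Hes1* encodes a transcriptional repressor and is the classical target of Notch (chromosome 16, 30064470 to 30067882, plus strand). Its deposited value was 28 for WT and 52 in the deficient library, 1.86-fold higher, with an interval from 0.792 to 4.58 that rests on approximately 10 and 16 reads. *Dtx1* (chromosome 5, 121130211 to 121161936, minus strand), which encodes the ubiquitin ligase Deltex1, had 37 and 41, a ratio of 1.11 with an interval from 0.671 to 1.79. *Nrarp* (chromosome 2, 25036278 to 25038850, plus strand), whose product feeds back on the Notch complex, had 30 and 35, a ratio of 1.17 with an interval from 0.582 to 2.32. All 3 were higher in the deficient library, and for none was the difference larger than the counting error. Of the genes with a mean from 25 to under 50, where these 3 lie, 48.7% were higher and 4.48% at least 2-fold higher.

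*Il2ra*, the alpha chain of the IL-2 receptor (chromosome 2, 11564419 to 11614818, plus strand), had 63 in WT DP thymocytes. The interval of this WT value runs from 49.2 to 80 and includes the 95th percentile of 54 of the olfactory receptor genes. In the *Cxxc1*-deficient library *Il2ra* had 207, 3.29-fold higher, with an interval from 2.48 to 4.38 (approximately 69 and 195 reads). This was the largest ratio of the 10 genes as deposited, while after subtraction of the olfactory receptor median that of *Hes1* (4.67) exceeds that of *Il2ra* (4.46), and *Il2ra* was above 74.5% of all genes in WT and above 98.4% in the deficient library. *Cd44*, an adhesion receptor for hyaluronan (chromosome 2, 102651298 to 102741822, minus strand), had 35 in WT and 58 in the deficient library, 1.66-fold higher, with an interval from 1.14 to 2.46 for its longest coding transcript and from 0.736 to 4.02 for its shortest. Whether *Cd44* differed by more than counting error thus depends on the transcript length, which the authors' value does not show.

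*Ptcra* (chromosome 17, 46893176 to 46900542, minus strand) had 79 in WT and 44 in the deficient library. The ratio of 0.557, which is above 1 under 1 of the scalings, had an interval from 0.179 to 1.67. The interval is wide because the annotated model has 600 bases, which gives approximately 12 and 6 reads. The ratio of *Il2ra* to *Ptcra*, both expressed before the DP stage, was 0.797 in WT and 4.70 in the deficient library. The 8 other chains and signalling molecules that work with the pre-TCR were all lower in the deficient library, with a median log2 ratio of -1.95, and 7 of the 8 were at least 2-fold lower. Of all genes with a mean of 500 or more, 96.3% were lower and 84.1% at least 2-fold lower, with a median of -1.61, and of those with a mean from 200 to under 500, 96.0% and 65.9%, with a median of -1.22. Nothing particular to the partners is read from their count. *Cd3d* had the largest reduction, 680 against 85, and *Cd3e* the smallest, 2304 against 1490, which turns to higher when well-expressed genes are scaled to the same median. Between them were *Lat* (1075 and 198), *Cd3g* (884 and 193), *Lck* (1073 and 255), *Cd247* (820 and 230), *Zap70* (148 and 53) and *Lcp2* (562 and 235). *Ptcra*, with a log2 ratio of -0.84, was nearer to WT than 7 of the 8.

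**Figure D2:**
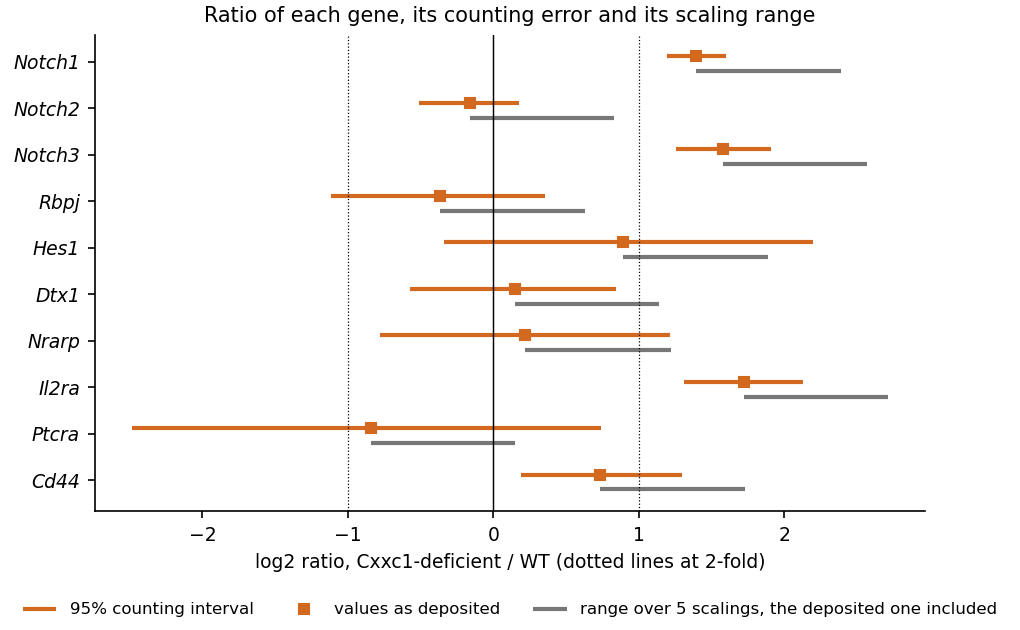
log2 ratio of the Cxxc1-deficient to the WT value for each of the 10 genes (orange squares) with the 95% Clopper-Pearson interval from estimated reads (orange lines) and the range over 5 scalings of the libraries, the deposited one included (grey lines). Drawn for the longest coding transcript, the intervals of Notch1, Notch3, Il2ra and Cd44 lie above 0, while that of Cd44 includes 0 for its shortest, and the grey lines of Notch2, Rbpj and Ptcra reach both sides of 0.

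Values over genes of like level are given as background, with level taken as the mean of both libraries. Of the 2472 genes at a mean of 100 or more, 95.2% had a lower and 4.69% a higher value, and 12, or 0.485%, were at least 2-fold higher. The 12 include *Notch1*, *Notch3*, *Il2ra* and *Myc*, a Notch target in early thymocytes that drives growth, which had 91 in WT and 192 in the deficient library. *Notch3*, *Il2ra* and *Myc* reach a mean of 100 only through their deficient values, so their place among the 12 is partly set by the difference itself and nothing is read from it. The ratio of *Myc* was 2.11 with an interval from 1.5 to 3.03 for its longest coding transcript and from 0.859 to 5.3 for its shortest. The log2 ratios were 1.58 for *Notch3* and 1.72 for *Il2ra*. The median was -1.0 over genes with a mean from 100 to under 200, where their means lie, and -0.53 over those from 50 to under 100, where their WT values lie. Genes with a mean from 200 to under 500 had a median of -1.22, and *Notch1*, which had 124 in WT and a mean in that range, had 1.39. *Notch2* and *Ptcra* lie among the genes with a mean from 50 to under 100, which had a median of -0.53 with quartiles of -0.90 and -0.16. *Notch2*, at -0.16, lay at the upper quartile and *Ptcra*, at -0.84, near the lower.

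**Figure D3:**
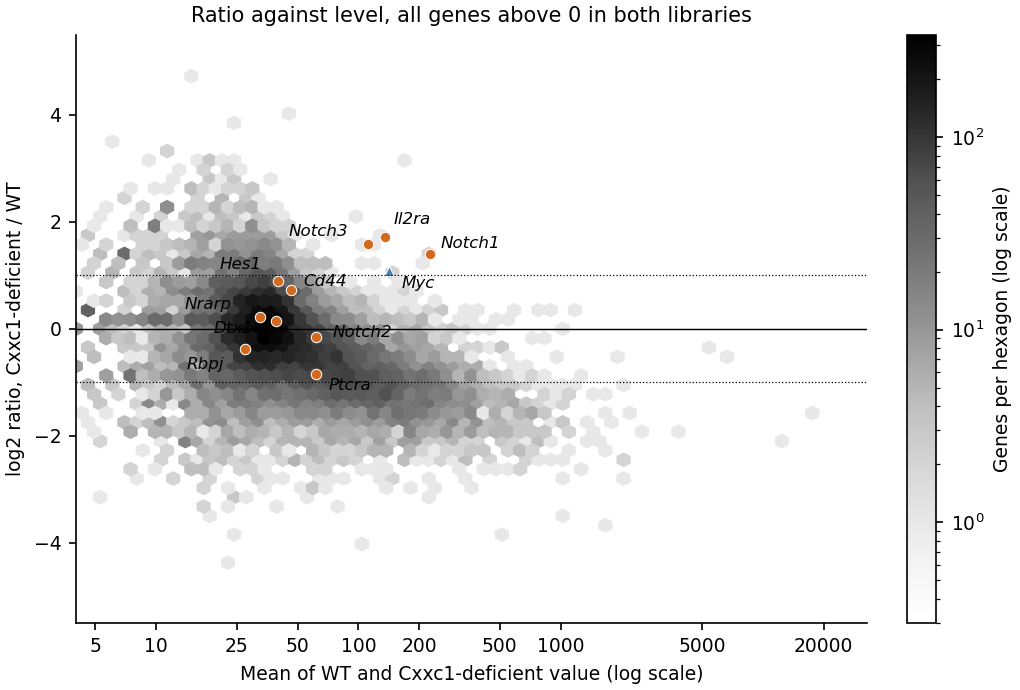
log2 ratio of Cxxc1-deficient to WT value against the mean of both (log axis), for genes above 0 in both libraries that fall within the axes as grey hexagons shaded by the number of genes, with the 10 genes as orange circles and Myc as a blue triangle; dotted lines mark 2-fold. The cloud bends below 0 as the level grows, with Notch1, Notch3, Il2ra and Myc above the upper dotted line at means of 111.5 to 225.

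The rest of the Notch pathway was described from role lists of 87 genes in all, of which 78 are not among the 10. Of all 86 above 0, 59 were lower as deposited and 36, 28 and 16 under the same 3 scalings. Of the 77 outside the 10, 56 were lower, 20 were higher and 1 was equal as deposited, and the median log2 ratio was -0.35, against -0.20 over all genes. At least 2-fold lower were 16 of the 77, against 17.4% of all genes, and only *Myc* was at least 2-fold higher, against 5.89% of all genes. The counts by role below stand against the same 17.4% and against 60.0% of all genes lower, and for genes at a mean of 100 or more against 56.8% and 95.2%. Of the 26 at a mean of 100 or more, 24 were lower, with a median log2 ratio of -0.87 against -1.08 over all genes of that level. Scaling well-expressed genes to the same median adds 1.00 to every log2 ratio, which turns the negative medians of the cleavage, glycosylation, trafficking, coactivator, corepressor and target lists to positive and leaves those of the pre-TCR and DP-stage lists negative.

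The 8 ligand genes, such as *Dll4*, the ligand that thymic epithelium presents to progenitors (32 in WT, 23 in the deficient library), and *Dlk1*, the highest of them by mean (24 and 40), all lay at 40 or under in both libraries. Of 9 genes for receptor cleavage above 0, 7 were lower. *Adam10*, the protease that makes the first ligand-induced cut, had 245 in WT and 72 in the deficient library, a fold reduction of 3.40 (95% interval 2.62 to 4.51). *Adam17*, a related protease, had 250 and 72, a fold reduction of 3.47. *Ncstn*, a subunit of the gamma-secretase that frees the intracellular part, had 143 and 124. *Psenen*, another subunit, was listed at 0 in both, and 16.6% of its exonic 50-base windows occur once in the genome.

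All 5 genes of Notch glycosylation, including the fringe genes *Lfng* and *Mfng*, were lower in the deficient library, none by 2-fold, with *Mfng*, the highest by mean, at 77 and 59 and with a median log2 ratio of -0.24. Of 15 genes of Notch trafficking and turnover, 12 were lower and 4 at least 2-fold lower, 3 of these 4 among the 6 genes at a mean of 100 or more. The 4 genes at least 2-fold lower were *Cbl* (674 and 273), *Itch* (308 and 151), *Mib1* (77 and 35) and *Fbxw7* (170 and 77), which encode ubiquitin ligases or a ligase subunit. FBXW7 marks the NOTCH intracellular part and MYC for degradation, and its fold reduction was 2.21 (95% interval 1.68 to 2.95). *Itch* was close to the 2-fold limit, with a fold reduction of 2.04.

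Of 9 RBPJ coactivator genes, *Rbpj* itself counted among them, 7 were lower and 2 at least 2-fold lower, a share near that of all genes. These were *Snw1* (183 and 83) and *Kat2b* (50 and 17). *Crebbp* and *Ep300*, the acetyltransferases that the Notch complex recruits, had 398 and 308 and 270 and 249. *Maml1*, the scaffold of the complex, had 136 and 83. Of 16 corepressor genes, 14 were lower and 6 at least 2-fold lower, 4 of these 6 among the 7 genes at a mean of 100 or more, with *Hdac2* at 389 and 89 and *Tbl1xr1* at 339 and 115, *Sin3a* at 232 and 101 and *Kdm1a* at 141 and 62. *Ncor1*, the highest of them, had 562 and 318. *Cir1*, counted among the 6, had 4 and 2, from approximately 3 and 1 reads, and its ratio had an interval from 0.00737 to 4.82. Of its exonic 50-base windows 18.6% occur once in the genome, so its place in the count is uncertain. *Hdac1* had 53 and 12, with 29.8% of its exonic 50-base windows found once in the genome, so its level is uncertain.

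The list of 20 Notch targets held 10 genes with higher and 10 with lower deposited values, with a median log2 ratio of -0.01. At least 2-fold higher were *Il2ra* and *Myc*, and at least 2-fold lower were *Ccnd3*, the D-type cyclin of pre-TCR expansion (488 and 122), and *Bcl11b*, a T-lineage identity factor (1162 and 395). *Tcf7*, which encodes TCF1, had 5826 and 4461, the highest value of the list in both libraries. *Hes5*, *Hey2*, *Heyl*, *Il7r* and *Igf1r* were higher but by less than 2-fold and at 79 or under in both libraries.

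**Figure D4:**
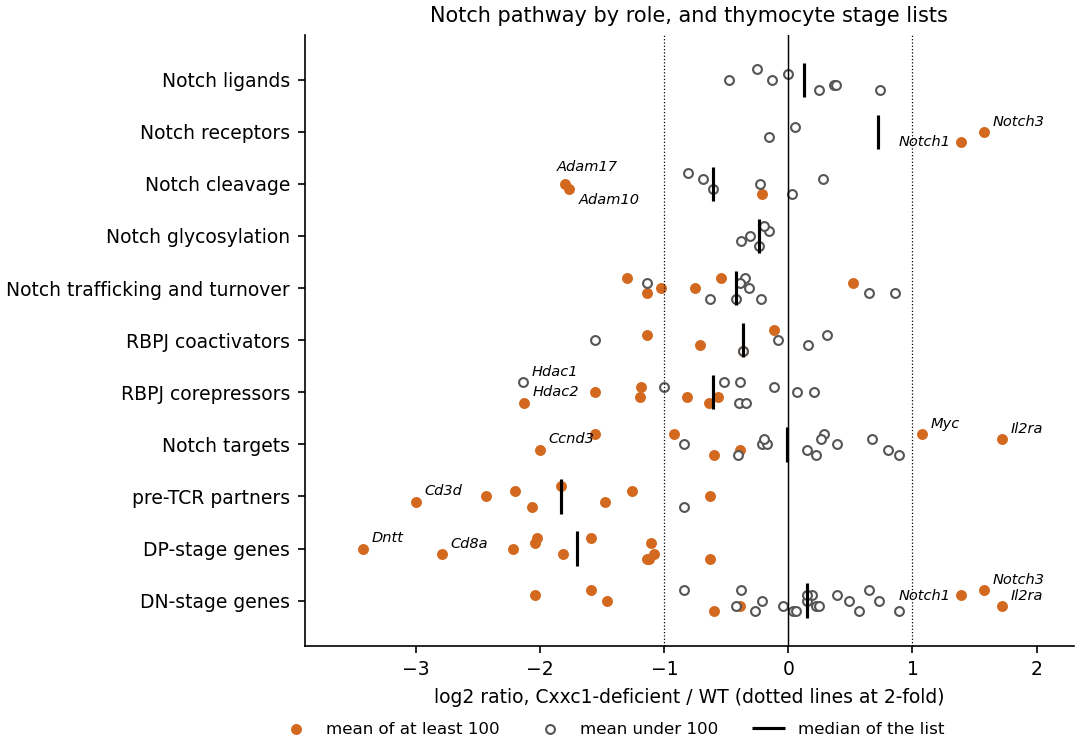
log2 ratio of Cxxc1-deficient to WT value for each gene above 0 in at least 1 library, by role in the Notch pathway and for the pre-TCR, DP-stage and DN-stage lists (a gene may stand in several lists); filled points have a mean of at least 100, open points less, black bars are list medians and dotted lines mark 2-fold. Notch1, Notch3, Il2ra and Myc are the points right of the upper dotted line, and the medians of the pre-TCR and DP-stage lists are at -1.83 and -1.71.

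*Il2ra*, *Cd44* and the Notch receptors are expressed before the DP stage, so other genes of the DN stages were looked at beside them. Of 27 DN-stage genes, 16 were higher and 11 lower as deposited, and 6, 5 and 3 were lower under the same 3 scalings. Of the 19 that are not among the 10, 9 were higher, 10 were lower, 0 were at least 2-fold higher and 3 were at least 2-fold lower, against 37.2%, 60.0%, 5.89% and 17.4% of all genes, with a median log2 ratio of -0.04 and medians of 35 in WT and 38 in the deficient library. *Kit*, the receptor that defines the first DN stages, had 35 and 36. *Mef2c* and *Lmo2*, transcription factors of early progenitors, had 39 and 61 and 27 and 40. The interval of the *Lmo2* ratio ran from 0.623 to 3.6. That of *Mef2c* ran from 1.12 to 2.22 for its longest coding transcript and from 0.744 to 3.57 for its shortest. Other such factors went both ways. *Spi1* (21 and 25), *Hhex* (14 and 16), *Gfi1b* (27 and 38) and *Meis1* (28 and 31) were higher. *Lyl1* (41 and 34), *Bcl11a* (74 and 64), *Tal1* (34 and 33) and *Erg* (47 and 36) were lower. *Cd24a*, which falls as thymocytes mature, had 322 and 117, and *Rag1* and *Rag2*, shared by the DN and DP stages, had 20778 and 5058 and 1219 and 405. None of the 27 was at 0 in either library, but a value above 0 does not show expression here. The 27 had medians of 37 in WT and 42 in the deficient library. The 95th percentiles of the olfactory receptor genes were 54 and 57. The study sorted its thymocyte populations by flow cytometry, and the gates used for these libraries are not given in the sources used here. It reports that DN cells made up most thymocytes of deficient mice. It also reports less CD8 protein on deficient DP cells. In a bulk library, a different share of DN cells and a different RNA level per DP cell cannot be told apart, and the part of DN cells in the higher values was not tested.

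Markers of other cell types, gamma-delta T cells included, were looked at too. Above the 95th percentile of olfactory receptor genes in both libraries were *Itgam*, an integrin of myeloid cells (101 and 107), and *Pecam1* of endothelium (119 and 66). *Gzma*, a granzyme of NK cells, had 102 and 54. The 8 B cell genes summed to 244 in WT and 227 in the deficient library. The 15 macrophage and dendritic cell genes in the table summed to 496 and 504, the 11 NK, gamma-delta T and innate lymphoid genes to 410 and 330, and the 15 epithelial and stromal genes to 515 and 397. The 7 erythroid genes summed to 161 and 179, with *Hba-a1* listed at 0 in both, and *Krt8*, an epithelial keratin, was listed at 0 in the deficient library. At least 2-fold higher were 2 genes, *Klf1* (29 and 64) and *Cd74* (14 and 50), and at least 2-fold lower were 7, *Cd79a*, *Lyz2*, *C1qa*, *C1qc*, *Klrd1*, *Ccl25* and *Krt8*, against 5.89% and 17.4% of all genes. Of the 55 such genes above 0, 26 were higher and 27 lower, with a median log2 ratio of 0. The 8 genes of mature single-positive cells summed to 631 and 484. The part of such cells in the values of the 10 genes was not tested.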

How the data were processed

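mRNA-seq was analysed for 1 library of DP thymocytes per genotype, grouped by sample title. The submitters' processing notes name CASAVA 1.8.2, Bowtie 1.0.1, the mm9 build and Partek. Only uniquely mapped reads entered the values. The deposited values are a score, an expression value per gene normalized and rounded to whole numbers by the authors; its formula and gene annotation are not given in the sources used here.

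The size of 1 read was estimated from the deposited values of genes with 1 annotated length, over 60 and up to 700 bases, in the GENCODE vM1 annotation of NCBIM37, which is mm9. A value was called whole when reads divided by length gave it within 0.5. This held for 227 of 381 genes in WT and 221 of 395 in the deficient library, and for at most 58 and 64 under each of 6 other sizes. Reads of longer genes assume the longest coding transcript and are approximate, since the authors' transcript lengths are unknown.

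Ratios used deposited values with a floor of 1 and a threshold of 2-fold. No test was run, because there is 1 library per genotype. Intervals are 95% Clopper-Pearson or Poisson. Windows of 50 bases inside exons were matched exactly to both strands of NCBIM37. The 10 genes, the gene lists and the alternatives were chosen with earlier results of these data known. Genes named are the 10, *Cxxc1*, list genes at least 2-fold changed with a mean of at least 50, and the highest of each list; others were named after their values were seen. Alternatives were 4 scalings, pseudocounts of 1 and 10, subtraction of the olfactory receptor median, a filter on low genes and thresholds of 1.5-fold and 3-fold. The scripts were tested on simulated data. Scripts ran under Python 3.11.15 with scipy 1.17.1, pandas 2.3.3 and numpy 2.4.6, and plots were drawn in matplotlib 3.10.9.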

Additional observations from a re-analysis of the deposited data

How the results depend on the processing

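The scalings multiply the deficient library and so shift every gene alike, by 0.04 in log2 when medians are matched, 0.39 when 75th percentiles are, 0.56 when sums outside the 100 highest genes are, and 1.00 when medians of genes at a mean of 100 or more are. Under all 8 settings, the deposited values included, *Notch1*, *Notch3* and *Il2ra* were at least 2-fold higher, with log2 ratios from 1.33 to 2.39, from 1.42 to 2.57 and from 1.57 to 2.71. *Hes1*, *Dtx1*, *Nrarp* and *Cd44* were higher under all 8. *Notch2* and *Rbpj* were higher under 3 and *Ptcra* under 1. Every scaling raises the deficient library, and equal pseudocounts cannot change a direction. For a gene higher as deposited, only the subtraction could therefore have reversed the direction. The agreement of the settings on higher genes is thus largely built in. Nor could the scalings bring *Notch1*, *Notch3* or *Il2ra* under 2-fold. The pseudocount of 10 could have, and gave their lowest log2 ratios, 1.33, 1.42 and 1.57.

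The number of lower genes among the 10 was 3 as deposited, 1 when 75th percentiles were matched, 1 when sums were and 0 when medians of well-expressed genes were. The number past 2-fold was 3, and became 5, 5 and 7 with these scalings, 7 after subtraction of the olfactory receptor median, 6 at 1.5-fold and 1 at 3-fold. After that subtraction *Rbpj* had 9 in WT and 0 in the deficient library, so its log2 ratio of -3.17 depends on the floor. Lower genes of the Notch pathway numbered 59 as deposited, 36, 28 and 16 with the same scalings, and 37 with a mean of at least 50. Lower DN-stage genes numbered 11, then 6, 5 and 3, and 7 with a mean of at least 50. The filter leaves fewer genes. No other setting moved these 4 counts by over 1.5 times. No paired analysis was possible because there is only 1 library of each genotype and no result comes from a test. Depth limits *Hes1*, *Nrarp* and *Ptcra*, with at most 19 reads in either library.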

Other observations

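The 12 genes at a mean of 100 or more that were at least 2-fold higher in the *Cxxc1*-deficient library, named after their values were seen, hold 8 besides *Notch1*, *Notch3*, *Il2ra* and *Myc*. *Mme*, which encodes the surface peptidase CD10, had 34 in WT and 294 in the deficient library, the largest ratio of the 12. *Fos* had 39 and 166 and *Jun* 67 and 161, both encoding subunits of the immediate early factor AP-1. *Dusp1*, which encodes a phosphatase of MAP kinases, had 127 and 303. *Trib1* had 54 and 152, *Phlda1* 125 and 344, *Zfp36l2* 88 and 190 and *Coa6* 64 and 154. *Dntt*, which encodes the terminal transferase of V(D)J joining, had the largest reduction of the DP-stage list, from 1859 to 172.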
